A study of Mus musculus with 2 samples.

Results

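Myoglobin, cytoglobin, the ferritin subunits and genes that move or use iron were followed in RNA of the newborn mouse heart. The 9 genes were chosen by symbol (Mb, Cygb, Fth1, Ftl1, Tfrc, Trf, Slc40a1, Slc11a2 and Iscu) and each was found once among the 43346 mouse genes of the tables. The study profiled whole hearts of B6NCrl mice on postnatal day 0, with 1 heart per library and 13 pg of RNA longer than 200 nt as input, which the labels call 1 cell-equivalent. Although the assay is titled single-cell, the RNA came from heart tissue and not from an isolated cell. Replicate 1 was made from pup 1 and replicate 2 from pup 3, both libraries carry the same donor identifier, and no treatment, mutation or control group is named. The libraries held 39671930 (replicate 1) and 32751851 (replicate 2) expected counts on mouse genes, and those counts are estimated reads that are not divided by length.

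Myoglobin is the haem protein that stores oxygen in heart and red skeletal muscle, and cytoglobin is a related globin found mainly in fibroblast-like cells. Iron enters most cells bound to transferrin through the transferrin receptor, is stored inside ferritin shells built of heavy and light chains, and leaves through ferroportin. Iron regulatory proteins bind a stem-loop in the messenger RNAs of several of these genes, blocking translation when the loop lies before the coding sequence and protecting the RNA from decay when it lies after it.

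By mean level, 3 of the 9 genes stood well above the rest. Levels are TPM, transcripts per 1000000, rescaled over mouse genes, and a difference between libraries is given as log2(TPM + 1) in replicate 1 minus replicate 2. Fth1, Mb and Ftl1 each averaged over 1000 TPM, Iscu averaged 104 ± 50.3 TPM (SD, n = 2), and the other 5 genes averaged under 35 TPM. Together the 9 genes took 0.619% of mouse TPM in replicate 1 and 0.901% in replicate 2. Of the 9 genes, 7 reached 1 TPM in both libraries, the level called read here, a state shared by 28.4% of 21461 nuclear protein-coding genes. The exceptions were Cygb, unread in replicate 2, and Slc40a1, at 0.188 TPM in replicate 1.

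In order of mean level the genes ran Fth1, Mb, Ftl1, Iscu, Trf, Tfrc, Slc40a1, Cygb and Slc11a2. Among neighbours in that order, only Ftl1 over Iscu kept 1 direction in both libraries with a mean log2 ratio beyond 2 SD (4.25 ± 0.66, n = 2). Iscu over Trf and Tfrc over Slc40a1 kept their direction but lay within 2 SD. Each of the other 5 neighbouring pairs changed order between the libraries. The step between the 3 highest genes and Iscu was thus the one step in the order beyond the spread of the libraries.

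**Figure D1:**
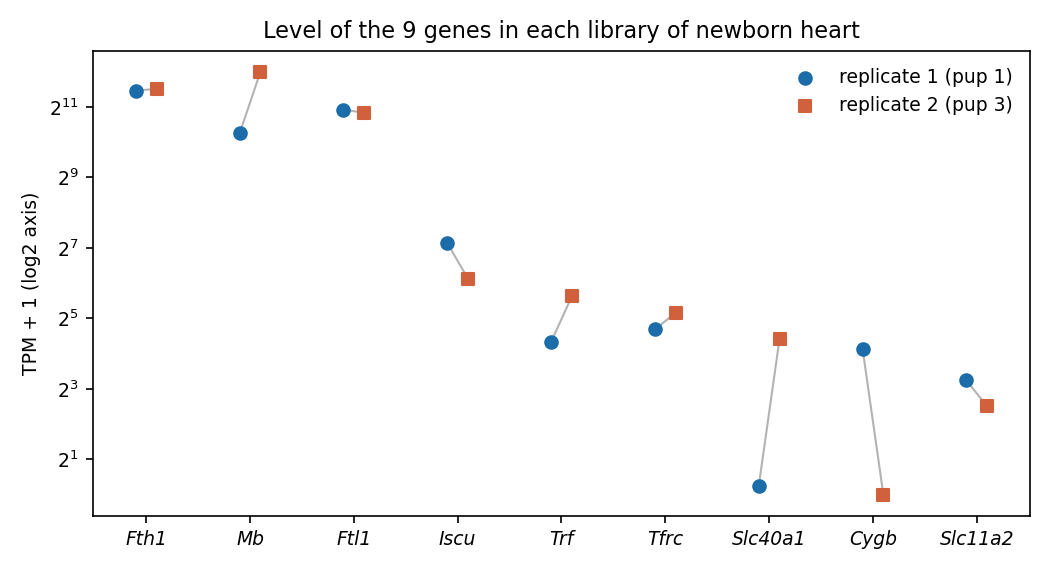
TPM + 1 on a log2 axis for the 9 genes, ordered by mean level, with replicate 1 as circles and replicate 2 as squares and a line joining the libraries of each gene. Fth1 and Ftl1 nearly coincide in the libraries, Mb is higher in replicate 2 (4083 TPM) than in replicate 1 (1218 TPM), and Slc40a1 and Cygb are each close to 0 in 1 library.

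The stem-loop bound by iron regulatory proteins was looked for in the GENCODE M21 transcript sequences, and its matches are printed because loops of this form are the known binding sites of those proteins. The search took a C, any 5 bases and the loop CAGTGN, whose last base is not G, on the sense strand of each transcript. It asked the 5 bases before the loop to pair with the 5 bases after it, with G and U allowed to pair. The bases below read 5′ to 3′ as 30-nt windows, written with T for U, and the capitals mark the 6-base loop.
Fth1: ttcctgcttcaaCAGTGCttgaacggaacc
Ftl1: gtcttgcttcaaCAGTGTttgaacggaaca
Slc40a1: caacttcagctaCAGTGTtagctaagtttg
Tfrc element 1: aattatcggaagCAGTGCcttccataatta
Tfrc element 2: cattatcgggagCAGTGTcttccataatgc
Tfrc element 3: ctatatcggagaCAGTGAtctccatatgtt
Tfrc element 4: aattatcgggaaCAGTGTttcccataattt
Slc11a2: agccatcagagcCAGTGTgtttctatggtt

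The Fth1, Ftl1 and Slc40a1 windows lie in the 5′ UTR, on chr19:9982732-9982761 (plus strand), chr7:45459778-45459807 (minus strand) and chr1:45925464-45925493 (minus strand) of mm10. They end 108, 146 and 200 nt before the start codon of Fth1-201, Ftl1-201 and Slc40a1-201. The 4 Tfrc windows lie in the 3′ UTR of Tfrc-201, on the plus strand at chr16:32631219-32631248, chr16:32631598-32631627, chr16:32631663-32631692 and chr16:32631710-32631739. The first of them starts 882 nt after the stop codon and the last 1373 nt after it. The Slc11a2 window, on chr15:100395152-100395181 (minus strand), starts 31 nt after the stop codon of Slc11a2-205 and matched only when 1 unpaired base was allowed in the 3′ arm of the stem. Mb, Cygb, Trf and Iscu transcripts held no match by either rule.

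Matches were rare among transcripts as a whole. With full pairing, 0.725% of 58797 protein-coding transcripts held at least 1 match, and Tfrc-201 was the 1 protein-coding transcript with at least 4. Allowing the unpaired base raised the first share to 2.13%. The Fth1 and Ftl1 windows shared 26 of 30 bases, and Tfrc elements 1 and 2 shared 25 of 30. A match describes letters in a transcript model, and binding was not measured.

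**Figure D2:**
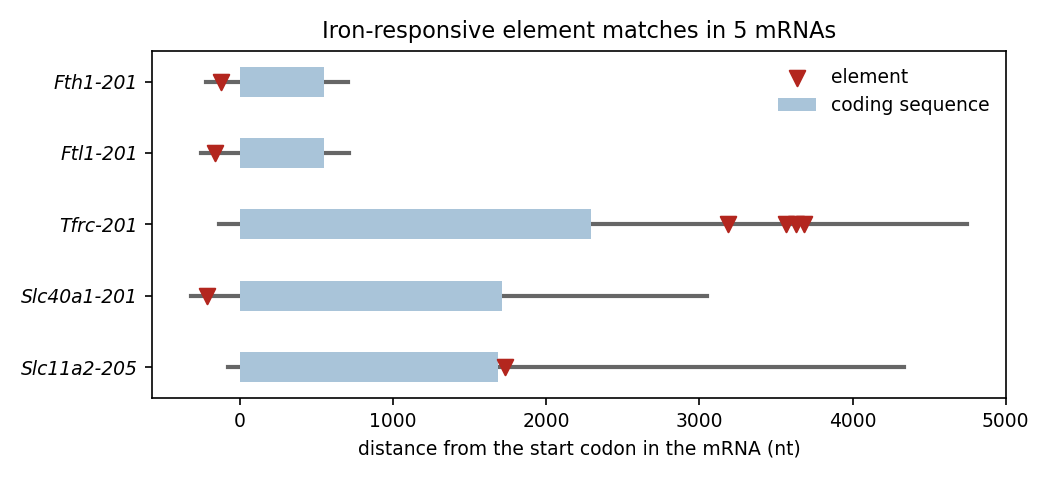
Position of the matches (triangles) in 5 messenger RNAs, as distance in nt from the start codon, with the coding sequence as a box and the untranslated parts as lines. Fth1-201, Ftl1-201 and Slc40a1-201 carry 1 match each before the coding sequence, Tfrc-201 carries 4 after it, and Slc11a2-205, a transcript with 0 counts in both libraries, carries 1 just after it.

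How much of each gene's RNA came from models with a match could be read from the transcript tables. All Fth1 counts lay on Fth1-201, the single model listed, whose deposited length was 866 nt against 929 nt in M21. Of Ftl1 counts, 99.6% in replicate 1 and 99.2% in replicate 2 lay on Ftl1-201, and its 4 other listed models, which M21 lacks, were not searched. Of Tfrc counts, 99.96% and 100% lay on models with the 4 matches. For Slc40a1 the shares were 96.1% of 12 counts in replicate 1 and 100% of 1817 counts in replicate 2. For Slc11a2 the share was 0 in both libraries, since none of its 218 and 335 counts were assigned to Slc11a2-205. In replicate 1, however, 51.8% of the counts lay on the 709-nt Slc11a2-202 and 7.70% on the 393-nt Slc11a2-204. Both models are shorter than the coding sequence of Slc11a2-205, bases 80 to 1765, and the 3′ end of their RNA was not examined.

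Mb, the myoglobin gene, lies at chr15:77015487-77050670 on the minus strand of mm10. Its level was 1218 TPM in replicate 1, against 4083 TPM in replicate 2, from 35673 and 100853 expected counts. It was thus 3.35-fold higher in replicate 2, and it ranked 91st among nuclear protein-coding genes in replicate 1 and 14th in replicate 2. Among 151 genes averaging at least 1000 TPM, 9.93% were over 2-fold apart, 7.95% with the higher level in replicate 1 and 1.99%, or 3 genes, with the higher level in replicate 2. Those 3 were Mb (−1.74), the ventricular light chain gene Myl2 (−1.65) and Usmg5 (−1.29), named after their values were seen. With 1 library on each side, neither level can be called the usual one.

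Markers of heart muscle cells differed in the same direction as Mb, by less. All 8 of the cardiomyocyte genes listed (Actc1, Tnnt2, Myh6, Myl2, Myl3, Tnni3, Ryr2 and Pln) were higher in replicate 2 in TPM, with a summed level of 44232 TPM in replicate 1, against 71920 TPM in replicate 2. Their median log2 difference was −0.56, and Myl2 was the 1 marker beyond 2-fold. Tnnt2 (−0.07) changed sign with DESeq2 factors (0.04) and lay at 0.0025 with those of edgeR, each of which left 7 of 8 higher in replicate 2. Actc1, cardiac actin, led them with 13940 TPM in replicate 1, against 23510 TPM in replicate 2. The part of muscle cell content in the Mb difference was not tested, and in RNA of whole hearts fewer cells of a type and less RNA per cell cannot be told apart. Mb is also made by skeletal muscle, of which 6 of 8 markers (Myh3, Myh8, Myh1, Myh4, Tnni2 and Tnnt3) had 0 counts in both libraries. Mylpf, a fast skeletal light chain gene, had 22.1 TPM from 411 counts in replicate 1 and 0 counts in replicate 2. The summed level of that list was 193 TPM in replicate 1, against 102 TPM in replicate 2, mostly Acta1, skeletal actin, which the newborn heart also uses.

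The transcript make-up of Mb was alike in the libraries, whatever its total. Mb-201 held 71.4% of Mb TPM in replicate 1 and 75.3% in replicate 2, and Mb-203 held 28.6% and 24.7%. Mb-201 is 966 nt long in the deposited tables and 550 nt in M21, so that the model itself differs between annotations. By distance on the log2 scale over the 2 libraries, the nuclear protein-coding genes nearest to Mb in level were Usmg5 (1548 and 3777 TPM in replicates 1 and 2) and Atp5mpl (1217 and 2421 TPM).

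Cygb, the cytoglobin gene (chr11:116645595-116654313, minus strand), was found at 16.6 TPM from 1194 counts in replicate 1 and 0 counts in replicate 2. Against a floor of 3 counts in replicate 2, its share of reads was at least 329-fold higher in replicate 1. That bound covers counting error only and sets no limit on the hearts themselves. Of 1888 genes averaging 5 to 10 TPM, 49.3% had under 3 counts in 1 library, so a gene missing from a single library was common at this level, and 80.4% were over 2-fold apart. The 7 fibroblast markers were all read in both libraries, with a summed level of 1143 TPM in replicate 1, against 963 TPM in replicate 2, led by Col3a1 (323 and 266 TPM). Of these markers Tcf21 alone was over 2-fold apart, with 16.6 TPM in replicate 1, against 3.45 TPM in replicate 2. In all, 5 of the 7 were higher in replicate 1, as Cygb was, and 2, Pdgfra and Postn, were higher in replicate 2. The part of fibroblast content in the Cygb values was not tested. On the log2(TPM + 1) scale Mb exceeded Cygb by 6.12 in replicate 1 and by 12.0 in replicate 2, where the pseudocount stands in for Cygb. The other globins outside red cells, Ngb (neuroglobin) and Adgb (androglobin), had 0 counts in both libraries.

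Fth1 (chr19:9980598-9985098, plus strand), the ferritin heavy chain with the ferroxidase activity of the shell, was the steadiest of the 9 genes in TPM. It reached 2828 TPM in replicate 1 and, in replicate 2, 2920 TPM, or 2874 ± 65.2 TPM (SD, n = 2), and ranked 23rd and 29th among nuclear protein-coding genes. Ftl1 (chr7:45457944-45459884, minus strand), the light chain that helps the iron core form, stood at 1937 TPM in replicate 1, against 1830 TPM in replicate 2 (1883 ± 76.0 TPM), ranks 48 and 62. Their differences between libraries were −0.05 and 0.08 on the log2 scale, and 92.7% and 87.4% of the 151 genes over 1000 TPM differed by at least as much. With the scaling factors of edgeR or DESeq2, the small Fth1 difference turned positive (0.03 and 0.06).

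Within each library RNA of the heavy chain exceeded RNA of the light chain by a similar margin, and protein was not measured. The log2 ratio of Fth1 over Ftl1, from TPM + 1 as for every pair, was 0.55 in replicate 1 and 0.67 in replicate 2, a mean of 0.61 ± 0.09 (SD, n = 2) or 1.53-fold. Taken from expected counts, the mean ratio was 0.43. Near-identical copies can take reads from Ftl1: of 7 annotated copies, the most read was Ftl1-ps1 on chromosome 13, 99.6% identical over the aligned part, with 37.9 TPM in replicate 1, against 40.6 TPM in replicate 2. All 7 copies together equalled 2.01% of the Ftl1 level in replicate 1 and 2.31% in replicate 2. The 1 copy found for Fth1, Gm6977 on chromosome X, equalled 0.273% and 0.214% of the Fth1 level. With copies added to their parents the mean ratio was 0.58. The genes nearest to Fth1 in level were Idh2 (2638 TPM in replicate 1, against 2734 TPM in replicate 2) and Atp5h (2612 and 3088 TPM). Those nearest to Ftl1 were Ndufb9 (1899 and 1930 TPM) and Cox6a1 (2006 and 1998 TPM).

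Ferritin RNA also outweighed RNA of the receptor that brings iron in. Fth1 exceeded Tfrc by a log2 ratio of 6.57 ± 0.30 and Ftl1 exceeded Tfrc by 5.96 ± 0.39 (SD, n = 2 each), both per length. In expected counts these means were 4.29 and 3.86, with the same direction. Ftmt, the mitochondrial ferritin gene, was chosen after seeing its values and had 0 counts in both libraries. Ncoa4, the receptor that delivers ferritin to lysosomes, stood at 32.9 TPM (replicate 1) and 50.8 TPM (replicate 2). The iron chaperone genes Pcbp1 and Pcbp2 differed in steadiness: Pcbp2 had 40.5 and 42.6 TPM, and Pcbp1 had 2.24 TPM in replicate 1, against 47.6 TPM in replicate 2.

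Tfrc, the transferrin receptor gene (chr16:32608920-32632794, plus strand), had 24.8 TPM from 2801 counts in replicate 1 and 34.7 TPM from 3934 counts in replicate 2. Its difference of −0.47 lay within 2-fold, and 79.5% of the 3028 genes with a mean of 10 to 30 TPM differed by at least as much. Its reads were split differently in each library. Tfrc-204, a 3527-nt model with a retained intron, held 92.5% of Tfrc counts in replicate 1 and 40.1% in replicate 2. Tfrc-201, the 4890-nt coding model, held 7.46% and 59.9%. Both models carry the 4 matches, so their sum stayed near all of the gene's counts while the split did not hold.

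**Figure D3:**
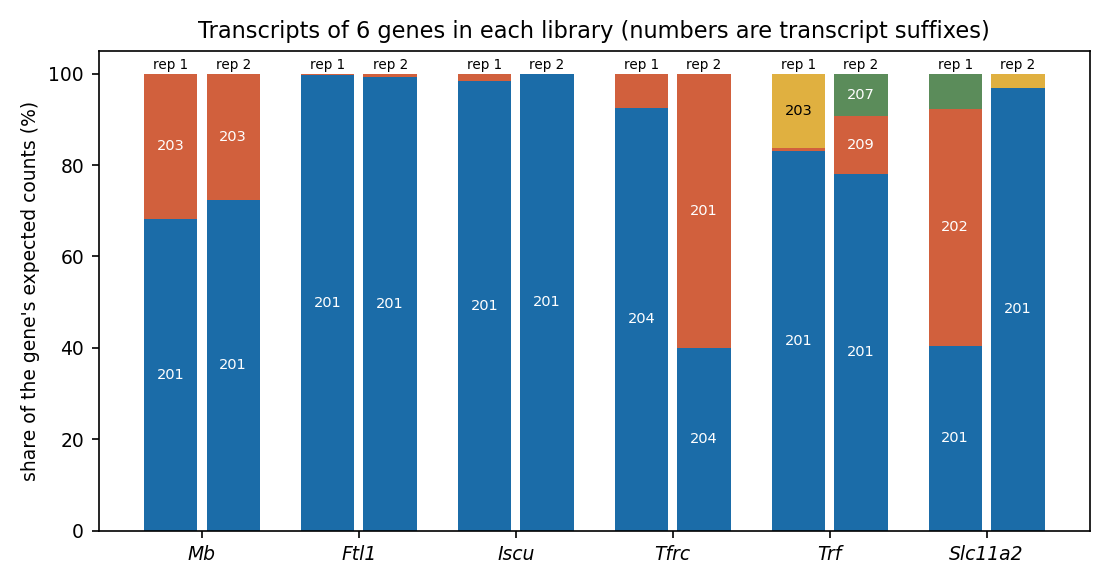
Share of a gene's expected counts (%) on each of its transcripts, with replicate 1 left of replicate 2 and segments labelled by transcript suffix where they reach 9%. Mb, Ftl1 and Iscu have like splits in the libraries, whereas Tfrc-204 is the larger segment in replicate 1 (92.5%) and the smaller in replicate 2 (40.1%), and Slc11a2-202 is present in replicate 1 alone.

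Trf, the transferrin gene (chr9:103204001-103230444, minus strand), measured 19.1 TPM in replicate 1, against 48.5 TPM in replicate 2, a log2 difference of −1.30. The expected counts were closer, at 1433 in replicate 1 and 1590 in replicate 2, and on the log2(CPM + 1) scale, from counts per 1000000 (CPM), the difference was −0.42. The gap between the scales came with shorter models in replicate 2. Trf-209, a 433-nt model with a retained intron, held 5.28% of Trf TPM in replicate 1 and 44.8% in replicate 2, from 10.9 and 199 counts. Trf-207, of 745 nt, held 0 and 149 counts, and Trf-203, of 2339 nt, held 232 and 0. The full-length Trf-201 held 1190 counts in replicate 1 and 1242 in replicate 2. Gm20425, a protein-coding gene model that overlaps Trf on the same strand, took 166 counts in replicate 1 and 0 in replicate 2, so the Trf level is uncertain to that extent. Of 2109 genes averaging 30 to 100 TPM, 42.6% were over 2-fold apart and 2.28% had under 3 counts in 1 library.

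Plasma transferrin is made mainly by liver, and glia also transcribe the gene. Of 7 hepatocyte markers, 6 (Alb, Afp, Apoa1, Apoa2, Serpina1a and Fgb) had 0 counts in both libraries, and Ttr reached 0.719 TPM in replicate 1 and, in replicate 2, 0.358 TPM. Of 5 glial markers, none reached 1 TPM in both libraries, Sox10 and S100b had 0 counts in both, and the highest, Mbp, stood at 1.74 TPM (replicate 1) and 0.0204 TPM (replicate 2). Tfrc over Trf changed sign between the libraries, with log2 ratios of 0.36 in replicate 1 and −0.47 in replicate 2. In counts, where the longer Tfrc gains, the mean ratio was 1.12.

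Slc11a2 (chr15:100387898-100425072, minus strand) encodes the divalent metal transporter that moves iron out of endosomes, and it had the lowest mean of the 9 genes, though Slc40a1 was lower in replicate 1 and Cygb in replicate 2. It had 8.44 TPM in replicate 1, against 4.66 TPM in replicate 2, a difference of 0.74. By counts per 1000000 the direction turned, with 5.50 CPM in replicate 1 and 10.2 CPM in replicate 2 (a difference of −0.79). The effective length used for the gene was 800 nt in replicate 1 and 2624 nt in replicate 2. Slc11a2-202, a model of 709 nt, held 51.8% of the counts in replicate 1 and none in replicate 2, while the 3025-nt Slc11a2-201 held 40.5% and 96.9%. No direction can be given for this gene. Tfrc exceeded Slc11a2 by a log2 ratio of 2.05 ± 0.85 (SD, n = 2), and by 3.45 in counts.

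Slc40a1, the ferroportin gene (chr1:45908068-45926523, minus strand), is the iron exporter of the set. It had 0.188 TPM from 12 counts in replicate 1 and 20.3 TPM from 1817 counts in replicate 2. It was 108-fold higher in replicate 2 by TPM and 183-fold higher by CPM. The deposited posterior means, rescaled alike, lay closer, at 0.864 TPM in replicate 1, against 21.7 TPM in replicate 2. Of 3028 genes with a mean of 10 to 30 TPM, 61.0% were over 2-fold apart and 27.5% differed by at least as much as Slc40a1 (−4.16). Slc40a1 over Slc11a2 changed sign between the libraries, at −2.99 in replicate 1 and 1.91 in replicate 2.

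Ferroportin is prominent in macrophages and in maturing red cells, and markers of both were measured. Of 10 macrophage markers, 4 were read in both libraries and Cd68, C1qc and Mrc1 had 0 counts in both. Their summed level was 188 TPM in replicate 1, against 118 TPM in replicate 2, and Lyz2 led with 81.3 and 43.3 TPM. The markers did not move as 1: C1qa (5.43 and 40.5 TPM) and Adgre1 (0 and 4.49 TPM) were higher in replicate 2, as Slc40a1 was, and the 5 others with reads, C1qb, Csf1r, Cd163, Lyve1 and Lyz2, were higher in replicate 1. The 9 erythroid markers summed to 5668 TPM in replicate 1, against 5624 TPM in replicate 2, with Hba-a2 at 2453 and 2427 TPM and with Epb42 at 0 counts in both libraries. Of these 9 markers, 4 were higher in replicate 1, 3 were higher in replicate 2 and 2 had 0 counts in both. Alas2 and Bpgm, among the 3 higher in replicate 2, were read in that library alone, as Slc40a1 nearly was. The part of either cell type in the Slc40a1 values was not tested.

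Iscu, the scaffold on which iron-sulphur clusters are assembled in mitochondria, lies at chr5:113772748-113778288 on the plus strand. It had 140 TPM from 3891 counts in replicate 1 and 68.7 TPM from 1614 counts in replicate 2. The log2 difference of 1.02 was just over 2-fold, and by CPM it was 0.98, just under. Of 779 genes with a mean of 100 to 300 TPM, 24.3% were over 2-fold apart. Iscu-201 held 98.8% of Iscu TPM in replicate 1 and 99.8% in replicate 2. The 1 pseudogene copy, Gm16437, equalled 1.13% of the Iscu level in replicate 1 and 1.46% in replicate 2.

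Set against all genes, the number of the 9 that were apart was near the background. Mb, Cygb, Trf, Slc40a1 and Iscu were over 2-fold apart, 5 of 9, beside 54.6% of the 8266 genes averaging at least 5 TPM. Cygb and Iscu were higher in replicate 1, and Mb, Trf and Slc40a1 were higher in replicate 2. The median log2 difference was −0.05 over the 9 genes and −0.01 over the 8266. By expected counts 3 of the 9 (Mb, Cygb and Slc40a1) were over 2-fold apart.

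**Figure D4:**
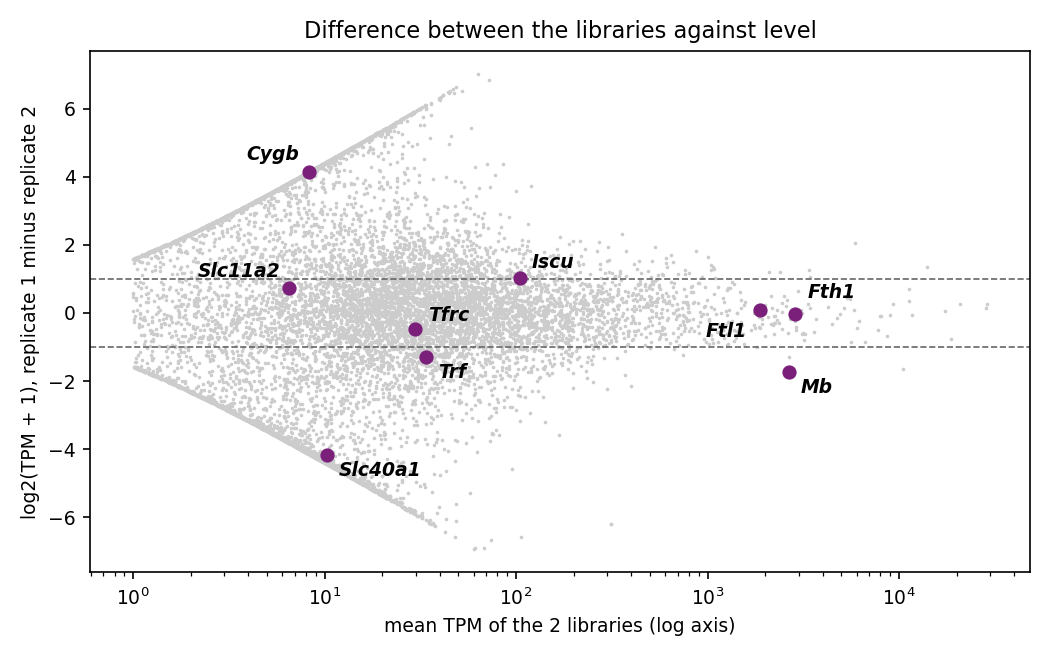
Log2(TPM + 1) in replicate 1 minus replicate 2 against the mean TPM on a log axis, for all mouse genes averaging at least 1 TPM (grey) and the 9 genes (purple), with dashed lines at 2-fold. Fth1 and Ftl1 lie near 0 at the narrow right-hand end, Mb (−1.74) lies at the lower edge of the cloud at its level, and Cygb and Slc40a1 lie at or near the edges formed by genes missing from 1 library.

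Other genes of iron and haem handling were read in part. Of 75 genes in 6 lists by role, 38 reached 1 TPM in both libraries, 21 in 1 library and 16 in neither, beside 28.4% of nuclear protein-coding genes in both libraries and 16.2% in 1. Among the 52 that averaged at least 5 TPM, 32 were over 2-fold apart. The higher level lay in replicate 1 for 14 of those and in replicate 2 for 18, beside 26.9% and 27.7% of all genes at that level. The lists describe what was read and carry no test.

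Of 26 genes of iron-sulphur assembly, 18 were read in both libraries. Bola3, which helps hand clusters to mitochondrial proteins, reached 216 TPM in replicate 1 and, in replicate 2, 398 TPM. Hspa9, the mitochondrial chaperone that works with Iscu, had 296 and 239 TPM. Nubp1, of the cytosolic assembly route, differed most, with 0 counts in replicate 1 and 39.1 TPM in replicate 2. Nfs1, the desulphurase that supplies sulphur to Iscu, was chosen after seeing its values and stood at 44.7 TPM in replicate 1, against 0.470 TPM in replicate 2.

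Of 19 haem genes, 13 were read in both libraries. Alas1, the housekeeping form of the first enzyme of haem synthesis, led with 318 TPM in replicate 1, against 211 TPM in replicate 2. Hmox2, the constitutive haem oxygenase, had 86.8 and 206 TPM. Alad, the second enzyme of the pathway, differed most, with 62.6 TPM in replicate 1, but no counts in replicate 2.

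Of 10 genes that regulate iron, 2 were read in both libraries. Fbxl5, which marks an iron regulatory protein for destruction when iron is plentiful, stood at 62.5 TPM (replicate 1) and 26.6 TPM (replicate 2), and Hfe had 30.2 and 23.6 TPM. The genes of the iron regulatory proteins themselves reached 1 TPM in replicate 1 alone. Aco1 had 47.0 TPM in replicate 1, but no counts in replicate 2. Ireb2, chosen after seeing its values, stood at 17.0 TPM in replicate 1, against 0.0818 TPM in replicate 2. Hamp, the hepcidin gene, chosen likewise, showed the reverse, with 0 counts in replicate 1 and 17.7 TPM from 142 counts in replicate 2. Of 10 uptake and reduction genes 1 was read in both, the endolysosomal channel gene Mcoln1. It had 21.3 TPM in replicate 1, against 38.1 TPM in replicate 2. By CPM the direction of Mcoln1 turned, with 33.4 CPM in replicate 1 and 12.2 CPM in replicate 2. The effective length used for it was 1929 nt in replicate 1 and 383 nt in replicate 2. Slc25a28, the mitochondrial iron carrier mitoferrin 2, had 9.85 TPM in replicate 1, but no counts in replicate 2. Of 8 storage, chaperone and export genes, 4 were read in both.

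**Figure D5:**
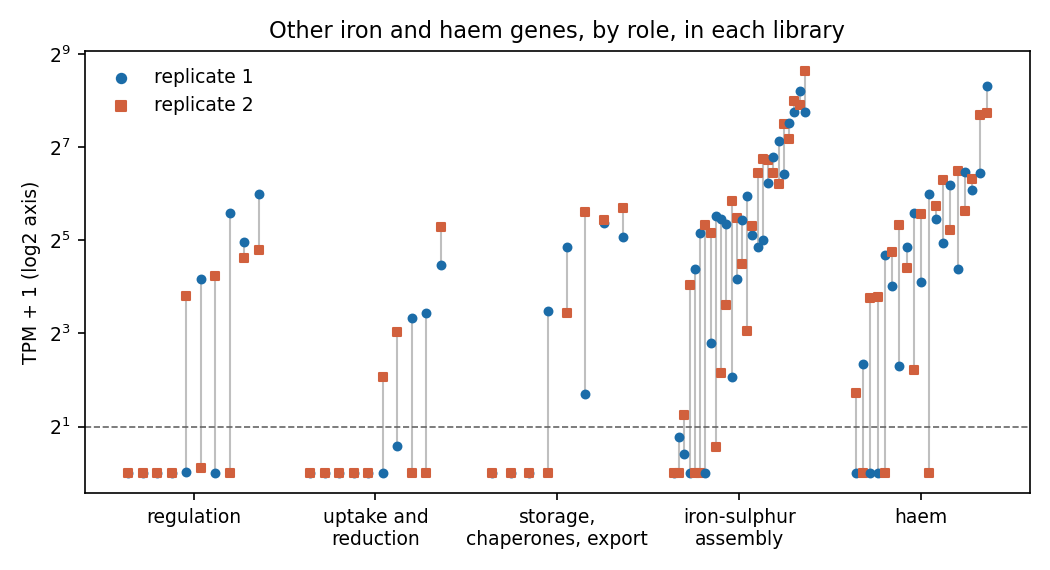
TPM + 1 on a log2 axis for the other iron and haem genes, grouped by role and ordered by mean within each group, with replicate 1 as circles, replicate 2 as squares and the dashed line at 1 TPM. In the iron-sulphur and haem groups 18 of 26 and 13 of 19 genes lie above the line in both libraries, and in the regulation group 2 of 10 do.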

How the data were processed

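Gene and transcript tables of 2 libraries were used, 1 pair per library, with no pooling. Per the file headers, the deposited tables hold expected counts, estimated reads that need not be whole, and TPM, with posterior means of TPM. In the deposited transcript tables a transcript's part of its gene's TPM is in percent. The deposited text notes name mm10 and GENCODE M4 as annotation. Neither aligner nor quantifier is given in the sources used here. TPM was rescaled to 1000000 over the 43346 mouse genes, leaving out spike-ins (2.40% and 1.27% of counts) and 26248 rows under bare numbers. Names, positions and sequences are those of GENCODE M21 for mm10, which matched 42462 genes by identifier.

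The labels give 1 group, so no test between groups was made. Means carry the SD of 2 libraries. Counts of the libraries differed beyond sampling noise (a mean chi-square of 794 for each gene), so the tables are not 1 library deposited again. That check cannot tell 1 heart from 2, and the separate pups are known from the labels alone. A gene with no counts may have had a true level of up to 3 counts, which is 0.0756 CPM in replicate 1 and 0.0916 CPM in replicate 2. That bound covers counting error only, since no molecular identifiers are described. No strand rule is given, so antisense partners are not separated. Genes were called over 2-fold apart beyond 1 on the log2(TPM + 1) scale. Pseudocount 1 understates changes of low genes.

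The genes, lists, pairs and the rule for named genes were chosen with earlier results of these data known. The rule named all 9 genes. From each list by role it took the 2 highest means and the largest difference at a mean of 5 TPM or more. From marker lists it took the highest gene and those at 0, and for Mb, Fth1 and Ftl1 the 2 nearest genes in level. Listed symbols missing from M21 were matched by RefSeq synonyms. For copies, transcripts were aligned in minimap2 2.31-r1302 and kept from 90% identity and 50% aligned length. Scaling alternatives used edgeR 4.0.16 and DESeq2 1.42.0 after rounding the expected counts, with Python 3.11.15 and R 4.3.3. The 2-fold calls were tried on simulated counts with counting noise alone, and the element search on made sequences. The simulated counts held no spread between hearts, so they give no rate of false calls for these libraries. Some listed genes are not reported here by name.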

Additional observations from a re-analysis of the deposited data

How the results depend on the processing

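Taking reads in place of values per length moved several results. In CPM (expected counts per 1000000), 3 of the 9 genes were over 2-fold apart in place of 5, since Trf and Iscu no longer were, and the 9 genes held 0.542% of reads in place of 0.760% of TPM. The mean log2 ratio in counts was 0.43 for Fth1 over Ftl1, 4.29 for Fth1 over Tfrc, 3.86 for Ftl1 over Tfrc, 1.12 for Tfrc over Trf and 3.45 for Tfrc over Slc11a2. For the share as for the pairs, TPM divides the same expected counts by length and CPM does not. Asking for a mean of 20 TPM and 50 counts left 3 genes over 2-fold apart, because Cygb and Slc40a1 were not counted under that filter. No called difference or ratio changed sign under any alternative run. Leaving out replicate 1 or replicate 2 gave 8 of 9 genes read in either case, 48 and 49 of the 75 other genes, and 0.901% and 0.619% of TPM. Mb over Fth1, Tfrc over Trf and Slc40a1 over Slc11a2 took opposite signs in the libraries. Factors of edgeR and DESeq2 shifted every difference by 0.07 and 0.11. No paired analysis was possible because the labels give 1 group. With 2 libraries an SD is itself rough, and the limits set by depth cover counting error, not the loss of RNA before sequencing.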
